A study of Mus musculus with 81 samples.

Results

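Heat shock chaperone genes were followed here as a set of 10 of the 51826 genes in the deposited expression table, each found by its gene symbol: Hsp90aa1, Hsp90ab1, Hspa1a, Hspa1b, Hspa8, Hspd1, Hspe1, Hsph1, Hsf1 and Dnajb1. The table held RNA sequencing counts for 81 libraries of mouse thymic tissue from 40 mice. All animals were of the C57BL/6 x 129S4Sv/Jae strain and carried Plk4(Col1a1), rtTA(Rosa) and centrin-GFP(Rosa), that is, an inducible Plk4 transgene, its doxycycline-responsive transactivator and a fluorescent centriole reporter. The 8 normal thymuses came from p53+/+ mice without treatment. The thymic lymphomas form 3 groups: p53-/- without treatment (10 mice, 23 libraries), p53-/- with treatment (9 mice, 18 libraries) and p53+/- with treatment (12 mice, 31 libraries). Treatment was doxycycline, started at 30 days of age and given over 2 weeks. Normal thymus thus differs from every lymphoma group in tumour state and in p53 genotype at once, and from both treated groups also in doxycycline, and these cannot be told apart. Treated p53+/- and untreated p53-/- lymphomas differ in genotype and treatment together, which cannot be told apart either. Labelled sex was uneven over the groups and entered the fits as a covariate. Males were 4 of 8 normal mice and 9 of 10 untreated p53-/-, 4 of 9 treated p53-/- and 3 of 12 treated p53+/- lymphoma mice. A single p53+/- normal thymus without treatment entered no main comparison and was added to the normal group in an alternative fit only. From 13 of the 31 tumours 4 or 5 biopsies were sequenced (54 libraries), and the other 18 tumours gave 1 biopsy each. The design text names the effect of aneuploidy on tumour development as the question. Induced Plk4 produces extra centrosomes and faulty chromosome segregation, and p53 normally stops cells that carry such faults.

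Chaperones hold unfolded proteins and help them reach their native shape. In the cytosol HSP70 proteins, driven by J-domain partners and by HSP110 exchange factors, receive new chains and pass many of them to HSP90, which matures kinases and transcription factors. In mitochondria the HSP60 barrel and its HSP10 lid fold imported proteins. HSF1, the transcription factor of the heat shock response, binds repeats of the letters GAA and its reverse complement TTC in the promoters of many of these genes, and its stress-inducible HSP70 targets are low in unstressed tissue and rise steeply under heat or proteotoxic stress.

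Promoter windows of 250 bases before to 50 after the gene start were taken from RefSeq (build GRCm38.p6), in which 6 of the 10 genes had at least 1 window. The HSF1 motif was searched as the 2-unit motifs GAANNTTC and TTCNNGAA, each of which reads the same on both strands, and as a 3-unit motif of alternating GAA and TTC units with any 2 bases between neighbours, on both strands. Matches that overlap were counted, so a 3-unit match also holds 2-unit matches. A 2-unit motif stood in 15.1% of all 32851 mouse windows and a 3-unit motif in 0.603% of them. Hspa1a and Hspa1b, the inducible HSP70 pair, are shown because their log2 fold changes against normal thymus were negative and those of the other genes positive. In edgeR with all mice the falls of the pair were called only in treated p53+/- lymphomas. Hspe1 and Hsph1 are shown because they hold the 3-unit motif. Capitals mark the matched GAA and TTC units.
Hspa1a, 250 bases upstream, chr17:34972157-34972406, minus strand: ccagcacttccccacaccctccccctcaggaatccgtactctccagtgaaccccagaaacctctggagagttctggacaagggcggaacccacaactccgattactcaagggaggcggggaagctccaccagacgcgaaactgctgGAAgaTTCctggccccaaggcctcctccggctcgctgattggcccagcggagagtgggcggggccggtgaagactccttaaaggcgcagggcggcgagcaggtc
Hspa1b, 250 bases upstream, chr17:34959239-34959488, minus strand: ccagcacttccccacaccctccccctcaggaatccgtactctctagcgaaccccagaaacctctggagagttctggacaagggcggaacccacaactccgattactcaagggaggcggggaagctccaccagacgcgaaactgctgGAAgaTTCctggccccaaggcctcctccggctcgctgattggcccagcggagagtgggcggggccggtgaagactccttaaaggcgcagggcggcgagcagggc
Hspe1, motif stretch, chr1:55088054-55088081, plus strand: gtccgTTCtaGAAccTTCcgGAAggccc
Hsph1, motif stretch, chr5:149636287-149636307, minus strand: ctgcagaTTCtgGAAagTTCt
The 2 HSP70 promoters were the same at 247 of 250 positions, and the 3 differences, counted from the first printed base with Hspa1a first, were C44T, T47C and T249G. Each holds 1 two-unit match and no 3-unit match. The Hspe1 stretch carries 2 overlapping 3-unit matches and also lies in 1 of the 2 Hspd1 windows, since the 2 genes are divergent neighbours. The Hsph1 stretch lies just downstream of the gene start, and both Hsph1 windows hold it. Neither Dnajb1 window held these letters. Those matches are descriptions of sequence.

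Depth ran from 1.03 to 26.9 M counts (mega-counts) per library and from 5.01 to 98.6 M counts per mouse after the biopsies of a tumour were summed. Normal mouse 387 stood apart: its 14 T-lineage markers summed to 1643 counts-per-million (CPM) against 7977 to 11630 in the other normal thymuses, and its 8 fat markers to 10480 CPM against 753.2 to 4342. Untreated lymphoma 881 had 3647 CPM of B-lineage markers and 271 CPM of T-lineage markers, and untreated lymphoma 562 had 3147 CPM of skeletal muscle markers where the other lymphomas had at most 41.6. In 3 treated mice the sex-linked genes went against the labelled sex. All normal thymuses but 387 held 1341 to 2334 CPM of thymic epithelium markers and the lymphomas 15.2 to 454, so the groups also differ in their mixture of cells. In bulk tissue fewer cells of a type and less RNA per cell cannot be told apart.

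How reads were divided between near-identical genes bears on the values (gene positions are on build GRCm38). Hspa1a (chr17:34969190-34972156) and Hspa1b (chr17:34956436-34959238) share 58.8% and 62.3% of their transcript 50-base words with each other, so the deposited split between them is uncertain and their sum is given beside each. Hspa8 (chr9:40800984-40810087) shares 34.6% of its words with the gene model Gm15459. The level of Gm15459 was typically 9.29% of that of Hspa8 but reached 137% in treated p53-/- lymphoma 659, which had the lowest Hspa8 of all mice. Hsp90aa1 (chr12:110690605-110702728) shares 41.8% of its words with Gm12346 and Hspd1 (chr1:55077835-55088243) 38% with Hspd1-ps3, but these copies stood at medians of 3.64% and 1.47% of the gene's own level. Hspd1 and Hspe1 (chr1:55088132-55091307) overlap by 112 bases on opposite strands, and Hspa1a overlaps the opposite-strand Gm20481 by 564 exonic bases. Whether the counting used strand is not given in the sources used here, so reads there cannot be told apart. Hspe1 shared 18.4% of its words with any other gene, 17.9% with AC117239.2. Hsp90ab1 (chr17:45567775-45573271) shared 3.44% of its words with any other gene, Dnajb1 (chr8:83608193-83612653) 0.38%, and Hsph1 (chr5:149614287-149636376) and Hsf1 (chr15:76477422-76501913) none.

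Per kilobase of exon, the order of the genes in normal thymus ran from Hsp90ab1, with a median of 549.1 CPM per kb, through Hspa8 at 318.2, Hsp90aa1 at 129.3, Hspd1 at 85.1, Hspe1 at 61.7 and Dnajb1 at 24.7, down to Hsph1 at 8.74, Hspa1b at 6.80, Hsf1 at 6.01 and Hspa1a at 2.58. The treated p53+/- lymphomas kept Hsp90ab1 at the top, at 1278 CPM per kb, and Hspa1a at the bottom, at 0.391. Per kb, the constitutive cytosolic chaperones Hsp90ab1 and Hspa8 thus had the highest levels and the inducible HSP70 pair and the regulator the lowest. In normal thymus the ranges of Hspa8 and Hsp90aa1 did not overlap, nor did those of Hspe1 and Dnajb1, while the ranges of the other neighbours overlapped. Within the same mouse, Hsp90ab1 exceeded Hspa8, Hspd1 exceeded Hspe1 and Dnajb1 exceeded Hsph1 in 8 of 8 normal thymuses, Hsp90aa1 exceeded Hspd1 and Hsf1 exceeded Hspa1a in 7, Hsph1 exceeded Hspa1b in 6, and Hspa1b exceeded Hsf1 in 4. Division was by all annotated exon bases of a gene, 7099 for Hsf1 and 7266 for Hsph1. In CPM without it, the normal median of Hsf1 (42.65) lay above those of Hspa1b (19.07) and Hspa1a (7.65).

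Compared with normal thymus, lymphomas held more HSP90 and more mitochondrial chaperonin RNA and, in most tumours, less of the inducible HSP70 pair. Hsp90aa1, Hsp90ab1, Hspd1 and Hspe1 were called higher in all 3 lymphoma groups, by 0.59 to 1.49 on the log2 scale, and Hspd1 and Hsp90ab1 lay above every normal thymus in 31 of 31 lymphomas, as 3.47% of the 17841 tested genes did. Hspa1a and Hspa1b fell in treated p53+/- lymphomas, by 2.42 and 2.32 on the log2 scale. A gene was called at a Benjamini-Hochberg adjusted p-value under 0.05 in edgeR's quasi-likelihood test over all genes tested. In untreated p53-/- lymphomas 5 of the 10 genes were called, all higher, where 23.2% of the 17841 tested genes were called higher, 17.6% lower and 40.7% in all. In treated p53-/- lymphomas 6 of 10 were called higher, against 25.4% of all genes called higher, 26.7% lower and 52.1% in all. In treated p53+/- lymphomas 4 were called higher and 2 lower, against 25.6% and 25.3% of all genes and 50.9% in all. The median log2 fold change of the 10 genes was 0.65, 0.76 and 0.65 in these 3 groups, and over all genes tested it was 0.08, -0.04 and 0.00. Those 3 comparisons share the same 8 normal thymuses and are not independent of each other.

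**Figure D1:**
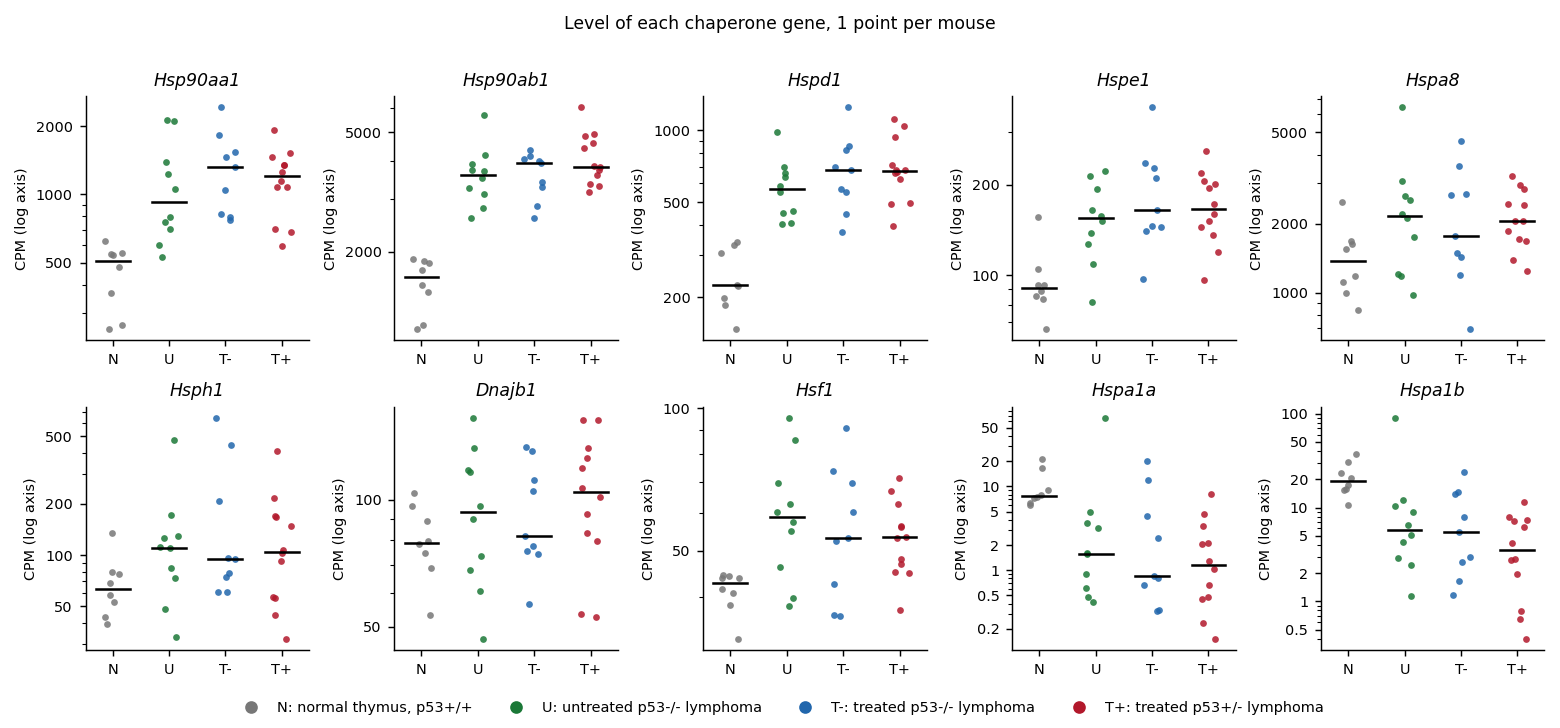
Level of each of the 10 genes in CPM on a log axis, 1 point per mouse, with the median of each group as a bar, in normal thymus (N, 8 mice), untreated p53-/- lymphoma (U, 10), treated p53-/- lymphoma (T-, 9) and treated p53+/- lymphoma (T+, 12). A level of 0 is drawn at 0.15. Hsp90ab1 and Hspd1 lie above all normal thymuses in every lymphoma, while most lymphomas lie below them for Hspa1a and Hspa1b.

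Hsp90ab1, the constitutive HSP90 of the cytosol, ranged from 1107 to 1891 CPM in normal thymus with a median of 1647. It ranged from 2581 to 5684 (median 3608) in untreated p53-/- lymphomas, from 2589 to 4345 (median 3957) in treated p53-/- lymphomas and from 3160 to 6035 (median 3832) in treated p53+/- lymphomas. No lymphoma overlapped with normal thymus. The log2 fold changes were 1.19 ± 0.16 (SE), 1.13 ± 0.15 and 1.30 ± 0.15 in the same order, with adjusted p-values of 2.34e-07, 2.31e-07 and 1.03e-08 in edgeR. Hsp90aa1, the stress-inducible HSP90, ranged from 254.9 to 623.6 CPM (median 508.2) in normal thymus. Its lymphoma medians were 924.4, 1320 and 1201 CPM, with the highest tumour, 653, at 2416. The groups overlapped slightly, since 28 of 31 lymphomas lay above all normal thymuses, where 14.8% of tested genes had at least 25 such lymphomas. Its log2 fold changes were 1.27 ± 0.29, 1.49 ± 0.29 and 1.30 ± 0.28 (adjusted p = 0.0007, 5.97e-05 and 0.000238 in edgeR).

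Hspd1, the mitochondrial HSP60 barrel, had a median of 224.7 CPM in normal thymus with a range of 147.6 to 342.0. The lymphoma medians were 567.8, 682.0 and 675.3 CPM, and the lowest lymphoma, treated p53-/- tumour 663, had 376.3. The groups did not overlap, and log2 fold changes were 1.26 ± 0.23, 1.41 ± 0.22 and 1.41 ± 0.22 (adjusted p = 3.22e-05, 3.32e-06 and 1.78e-06 in edgeR). Hspe1, its HSP10 lid, moved less. Normal thymus ranged from 66.3 to 156.6 CPM with a median of 91.0, and the lymphoma medians were 154.4, 164.1 and 166.1. Only 17 of 31 lymphomas lay above all normal thymuses, of which mouse 624 was the highest. Its log2 fold changes were 0.59 ± 0.22, 0.94 ± 0.21 and 0.80 ± 0.21 (adjusted p = 0.03, 0.00044 and 0.00175 in edgeR), and the first of them was no longer called when 1 of 4 mice was left out (325, 562, 787 or 978, adjusted p = 0.0523 to 0.0829 in edgeR).

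Beside these rises, 16, 17 and 17 of 18 proliferation genes were called higher in the 3 comparisons with normal thymus, and their summed level was 612.1 to 3613 CPM in normal thymus and 3741 to 6958 in lymphomas. The normal thymuses with the lowest Hsp90aa1, Hsp90ab1 and Hspd1 were 978 and 961, whose proliferation sums were 612.1 and 1162 CPM. Mouse 387 also had a low proliferation sum, at 775.9 CPM, but the highest normal Hsp90ab1 (1891 CPM) and Hspd1 (342 CPM) and 540 CPM of Hsp90aa1. The other 5 normal thymuses had proliferation sums of 2360 to 3613 CPM. The part of cell proliferation in the chaperone levels was not tested.

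**Figure D2:**
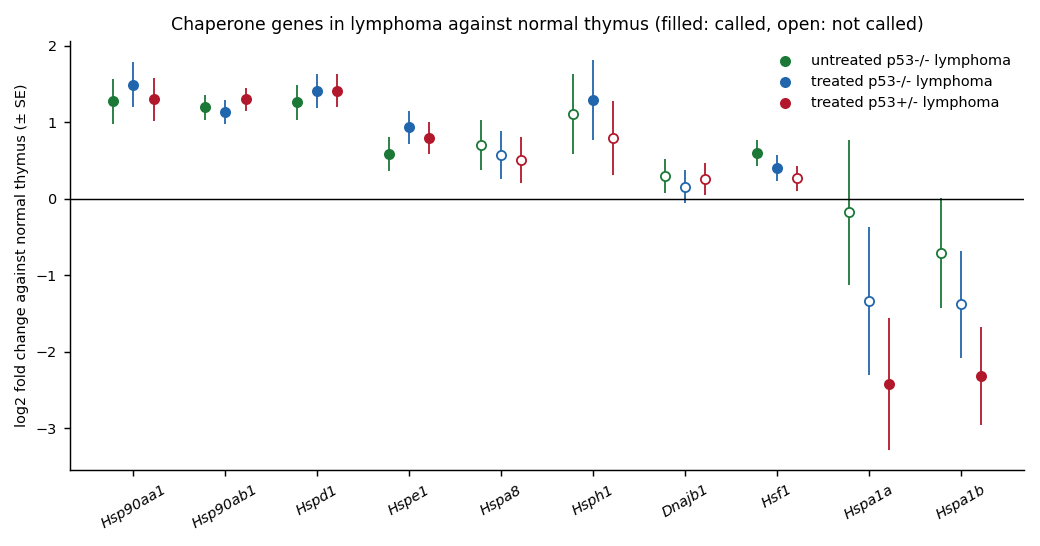
Log2 fold change of each gene against normal thymus with its SE for the 3 lymphoma groups, filled where called (adjusted p under 0.05, edgeR) and open where not. The HSP90 and mitochondrial genes lie above 0 in each group, and Hspa1a and Hspa1b lie below it with the widest errors.

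Hspa8, the constitutive HSP70 of the cytosol (HSC70), had a median of 1369 CPM (range 840.9 to 2483) in normal thymus and medians of 2153, 1773 and 2059 in the lymphomas. The ranges overlapped widely, with 11 of 31 lymphomas above all normal thymuses and 1 below. The share of all genes with as many such lymphomas was not taken, here or for Hspe1. Log2 differences of 0.71 ± 0.33, 0.57 ± 0.32 and 0.51 ± 0.30 did not pass the test (adjusted p = 0.0815, 0.128 and 0.163 in edgeR). The highest normal thymus was 387, and without it the differences were 0.93, 0.87 and 0.81 and all were called (adjusted p = 0.0227, 0.0289 and 0.0368 in edgeR). Leaving that mouse out also moved the median of all genes tested, to 0.21, 0.11 and 0.15. In untreated p53-/- lymphomas Hspa8 was also called without mouse 643 (0.82, adjusted p = 0.0467) or without treated mouse 857 (0.81, adjusted p = 0.0473). Over all mice left out in turn, the lowest differences in the 3 groups were 0.428, 0.375 and 0.407. With the counts of Gm15459 added, values were 0.64, 0.58 and 0.41 and none was called (adjusted p = 0.0816, 0.0902 and 0.208 in edgeR). On that sum normal thymus ranged from 1142 to 2880 CPM, and tumour 659 stood at 1647 CPM in place of 694.8.

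Hsph1, the HSP110 exchange factor of HSP70, was low in normal thymus, with a median of 63.5 CPM and a range of 39.5 to 135.6. The lymphoma medians were 110.6, 94.8 and 104.8 CPM, but the ranges were wide, reaching 478.3 in untreated tumour 562, 644.3 in treated p53-/- tumour 653 and 407.9 in treated p53+/- tumour 309. Tumours 157 and 280 lay below every normal thymus. The log2 difference of 1.29 ± 0.52 was called in treated p53-/- lymphomas (adjusted p = 0.0374 in edgeR), and leaving out any 1 of 6 mice (490, 653, 615, 961, 978 or 980) ended that call (adjusted p = 0.0607 to 0.128). The differences of 1.11 ± 0.52 in untreated p53-/- and 0.79 ± 0.48 in treated p53+/- lymphomas were not called (adjusted p = 0.0836 and 0.17 in edgeR), although the first was called without mouse 387 (1.33, adjusted p = 0.0461). Over all mice left out in turn the untreated p53-/- difference ran from 0.635 to 1.33.

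Dnajb1, a J-domain partner that brings clients to HSP70, did not pass the test in any group. Its median was 79.1 CPM (53.3 to 103.8) in normal thymus and 93.2, 82 and 104 in the lymphomas, with overlapping ranges. The log2 differences were 0.30, 0.16 and 0.26, with 95% intervals of -0.13 to 0.74, -0.27 to 0.58 and -0.14 to 0.67. Hsf1, the regulator, ran from 32.5 to 44.4 CPM in normal thymus (median 42.6) and had medians of 58.9, 53.3 and 53.3 CPM in the lymphomas, 25 of which lay above all normal thymuses, where 14.8% of tested genes had at least 25 such lymphomas. It rose by 0.60 ± 0.17 in untreated p53-/- lymphomas (adjusted p = 0.00516 in edgeR) and by 0.40 ± 0.17 in treated p53-/- lymphomas (adjusted p = 0.0436), a call that ended when any 1 of 8 mice was left out (490, 553, 653, 659, 615, 961, 978 or 980). Its difference of 0.27 ± 0.16 in treated p53+/- lymphomas was not called (adjusted p = 0.162). It was called there without mouse 280 (0.37, adjusted p = 0.0461) or without treated p53-/- mouse 857 (0.38, adjusted p = 0.0496).

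The inducible HSP70 genes went the other way. Hspa1a ranged from 6.00 to 21.3 CPM (median 7.65) in normal thymus, and its lymphoma medians were 1.58, 0.864 and 1.16 CPM. In 27 of 31 lymphomas it lay below every normal thymus, where 12.7% of tested genes had at least 25 such lymphomas. Treated p53+/- tumour 24 had a count of 0, where 3 counts would be 0.191 CPM. Hspa1b ranged from 10.7 to 37.6 CPM (median 19.1) in normal thymus and had medians of 5.79, 5.55 and 3.52 CPM, with 25 lymphomas below every normal thymus. One tumour was far above the rest: untreated p53-/- tumour 562 had 66.2 CPM of Hspa1a and 90.8 of Hspa1b, above all 8 normal thymuses, and the next lymphoma, treated p53-/- tumour 490, had 19.9 and 23.8. Tumour 562 is also the lymphoma with 3147 CPM of skeletal muscle markers. Erythroid markers summed to 3251 CPM in tumour 562 and to 2947 and 3437 CPM in tumours 98 and 309, which had 4.99 and 3.38 CPM of Hspa1a and 10.5 and 6.23 CPM of Hspa1b. As a sum the pair ranged from 16.7 to 59 CPM in normal thymus, and 9 of 10 untreated p53-/-, 6 of 9 treated p53-/- and 12 of 12 treated p53+/- lymphomas lay below that range. Among single genes tested, 5.54% had all treated p53+/- lymphomas below the normal range. For the p53-/- groups no such share was taken.

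In treated p53+/- lymphomas Hspa1a fell by 2.42 ± 0.87 on the log2 scale (adjusted p = 0.0194 in edgeR) and Hspa1b fell by 2.32 ± 0.64 (adjusted p = 0.00294). The call of Hspa1a ended without normal mouse 387 (-2.08, adjusted p = 0.0594 in edgeR), and the sum of the pair fell by 2.33 (adjusted p = 0.00542). In treated p53-/- lymphomas the differences of -1.34 ± 0.97 and -1.38 ± 0.70 were not called (adjusted p = 0.249 and 0.0939). Hspa1b was called there without mouse 490 (-1.79, adjusted p = 0.0352) or without untreated mouse 562 (-1.42, adjusted p = 0.0381). The untreated p53-/- values turned on tumour 562: with it the differences were -0.18 ± 0.95 and -0.71 ± 0.71 (adjusted p = 0.899 and 0.447 in edgeR), and without it they were -2.28 and -1.87 and both were called (adjusted p = 0.0186 and 0.0116). A voom fit on all biopsies, an alternative on log values that models the correlation of biopsies from 1 mouse, called both genes lower in all 3 groups, with log2 changes of -2.19, -2.60 and -3.50 for Hspa1a and -1.92, -2.26 and -2.89 for Hspa1b. Beside the lower HSP70 pair, 6, 13 and 8 of 18 immediate early genes, whose RNA rises within minutes of handling, were called lower and 1 higher in each group, where 17.6%, 26.7% and 25.3% of all genes were called lower. Their summed level was 822.4 to 1198 CPM in normal thymus and 295.2 to 1178 in lymphomas, with 1115 in tumour 562. The part of tissue handling, skeletal muscle, erythroid cells, thymic epithelium or fat in the HSP70 levels was not tested.

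Each gene's fold change was set beside the median of the other tested genes on its chromosome. Chromosome 5, which carries Hsph1, had medians of 0.49, 0.47 and 0.44 in the 3 comparisons, and chromosome 15, which carries Hsf1, had 0.36, 0.29 and 0.42. The Hsf1 change minus this median was 0.24, 0.12 and -0.15, and 59%, 54.2% and 45.8% of the other chromosome 15 genes had a lower fold change. The chromosome medians of the other 8 genes lay between -0.15 and 0.15. Relative to chromosome 12, 17 and 1, Hsp90aa1 was higher by 1.12, 1.34 and 1.29, Hsp90ab1 by 1.14, 1.20 and 1.26, and Hspd1 by 1.19, 1.42 and 1.37 on the log2 scale.

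None of the genes was called between lymphoma groups. In the fit of the 3 lymphoma groups 0 of 10 genes were called in each of the 3 comparisons, where 0.0% of 16387 tested genes were called. Over all genes 1915, 866 and 1039 had an unadjusted p under 0.05 in edgeR, and DESeq2 called 75, 12 and 3 genes, none of them among the 10. At an unadjusted p under 0.05, 0, 0 and 1 of the 10 genes passed. Without labelled sex as a covariate edgeR called 0, 0 and 21 of all genes. The pairs of lymphoma groups overlapped for each gene. For Hsp90ab1 the 95% intervals of the log2 difference were -0.41 to 0.20 for treated against untreated p53-/-, -0.11 to 0.42 for treated p53+/- against treated p53-/- and -0.26 to 0.36 for treated p53+/- against untreated p53-/-, and for Hspd1 they were -0.36 to 0.52, -0.38 to 0.37 and -0.37 to 0.51. The widest difference was Hspa1a in treated p53+/- against untreated p53-/- lymphomas, at -2.29 ± 1.09 (adjusted p = 0.777 in edgeR), a comparison that includes tumour 562. Hspa1b and Hsf1 differed there by -1.52 ± 0.75 and -0.38 ± 0.19 (adjusted p = 0.777 for both). The 95% interval of the Hspa1a difference ran from -4.42 to -0.15. No fit among lymphomas left out tumour 562. Against normal thymus Hspa1a was at -2.42 in treated p53+/- lymphomas, and at -2.28 in untreated p53-/- lymphomas when tumour 562 was left out.

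Correlations between the genes were taken across the 31 lymphomas. Of 45 pairs, 23 had a correlation of log2 CPM with an adjusted p under 0.05 by permutation (100000 resamples, two-sided, Benjamini-Hochberg over the 45 pairs), all positive, and the median r of the 45 was 0.41. The lowest r among the 23 was 0.41, a value that 4.84% of all pairs of the 16387 tested genes reached, with a median r of 0.01 over all those pairs. This is a description, and the difference was not tested. Hsf1 and its classical target Hsph1 had Pearson's r = 0.75 (permutation p = 1e-05, the smallest these resamples can give, adjusted 0.000225) and Spearman's rho = 0.73 (permutation p = 2e-05, adjusted 0.0003), and r = 0.65 without the 2 mice farthest from the median. Within the 3 groups r was 0.85, 0.86 and 0.59. Hspa8 and Hsph1 had r = 0.70 (permutation p = 4e-05, adjusted 0.0006) and rho = 0.73 (permutation p = 1e-05, adjusted 0.000225), r = 0.83 without the 2 farthest mice, and r = 0.83 with Gm15459 added to Hspa8. Hspd1 and Hspe1, the barrel and its lid, had r = 0.64 (permutation p = 0.00015, adjusted 0.00112) and rho = 0.67 (permutation p = 6e-05, adjusted 0.000675), with r = 0.77, 0.43 and 0.76 within the groups. Hsp90aa1 and Hsp90ab1 had r = 0.52 (permutation p = 0.00301, adjusted 0.00847) and rho = 0.51 (permutation p = 0.00365, adjusted 0.0103), with 0.86, 0.33 and 0.33 within the groups.

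**Figure D3:**
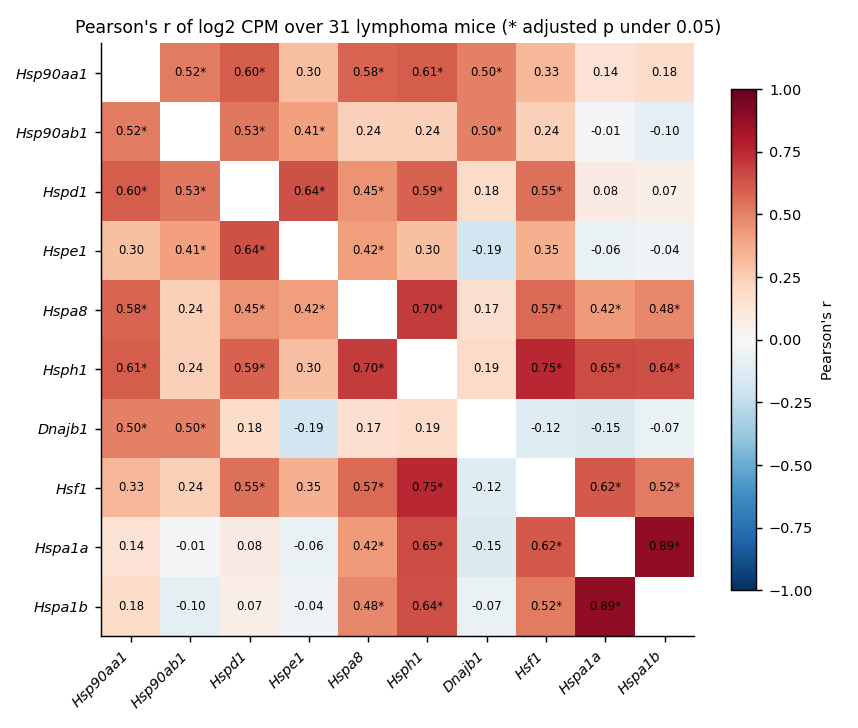
Pearson's r of log2 CPM for each pair of genes over 31 lymphoma mice, red for positive and blue for negative, with a star where the permutation p adjusted over 45 pairs is under 0.05. The 23 starred pairs are positive, and Dnajb1 has stars only with Hsp90aa1 and Hsp90ab1.

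The inducible HSP70 genes had positive relations with Hsph1 and Hsf1. Hspa1a had r = 0.65 with Hsph1 (permutation p = 0.00013, adjusted 0.00112, rho = 0.62) and r = 0.14 with Hsp90aa1 (permutation p = 0.449, adjusted 0.546, rho = -0.01). The difference between these correlations was not tested. Hspa1b had r = 0.64 with Hsph1 (permutation p = 0.00013, adjusted 0.00112, rho = 0.61). With Hsf1 the values were 0.62 for Hspa1a and 0.52 for Hspa1b (adjusted permutation p = 0.00146 and 0.00738), and 0.53 and 0.33 without the 2 mice farthest from the median. Within treated p53+/- lymphomas these relations were lower, with r = 0.26 and 0.47 for Hsph1 and 0.16 and 0.19 for Hsf1; the difference between groups was not tested. Hspa1a and Hspa1b had r = 0.89 with each other, the highest of the 45 pairs, which shared reads can raise. The relations of Hspa1a and Hspa1b with Hspa8 (r = 0.42 and 0.48, adjusted permutation p = 0.0372 and 0.0156) had r = 0.25 and 0.27 without the 2 mice farthest from the median, so these values of r rest on those mice. Spearman's rho over all 31 mice was 0.43 and 0.42 (adjusted permutation p = 0.0352 and 0.0422). With Gm15459 added to Hspa8, Pearson's r was 0.56 and 0.60 (adjusted permutation p = 0.00379 and 0.00165), and 0.41 and 0.40 without the same 2 mice each. Dnajb1 had r = 0.50 with each HSP90 gene (adjusted permutation p = 0.0108 and 0.0105) and lay between -0.19 and 0.19 with the other 7. Centring each gene on its group means left 24 pairs under the threshold.

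The same few tumours stood at the top for several genes. Tumour 562 had the highest Hspa8 (6412 CPM), Dnajb1 (156.4) and Hsf1 (95.5) of the 31 lymphomas besides the highest HSP70 pair, and tumour 653 the highest Hsph1, Hsp90aa1 and Hspd1 (1242 CPM) with the second highest Hspa8 (4562) and Hsf1 (90.8). The muscle and erythroid markers of tumour 562 stand beside its values here too. Tumour 490 had 3565 CPM of Hspa8, behind 562 and 653, and 441.9 CPM of Hsph1, also behind them. At the other end tumour 280 had the lowest Hsph1 (31.9 CPM) and Hspa1b (0.394). All of these tumours gave a single biopsy.

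Genes with the most similar pattern were listed by Pearson's r of group-centred log2 CPM over the same 31 mice among 10416 protein-coding genes for which the mean of the tumours' log2 CPM values was 2 or more, as a description without a test. Hspa8 was nearest to Hsph1 (0.72), Carnmt1 (0.70) and Stip1 (0.68), the adaptor between HSP70 and HSP90. Hsph1 was nearest to Kdm5c (0.78), Hsf1 (0.77) and BC037034 (0.75), and Hsf1 to Hsph1 (0.77), Nup50 (0.75) and the HSP70-interacting protein gene St13 (0.74). Hspe1 was nearest to Tomm5 (0.82), a mitochondrial import subunit, Rplp0 (0.75) and Polr2f (0.75). Hspd1 was nearest to Pim3 (0.72), Ppif (0.71) and Mpp6 (0.71). Hsp90aa1 was nearest to Cyb5b (0.79), Baz1a (0.78) and Itpk1 (0.78), Hsp90ab1 to Tra2b (0.67), Ing2 (0.67) and Zfp326 (0.64), and Dnajb1 to Zfp131 (0.76), Kif5b (0.75) and Phf6 (0.75). Hspa1a was nearest to Hspa1b (0.88), Agpat1 (0.75) and Dusp3 (0.74). It was itself under that minimum, with a mean of 0.67, and so was not among the genes searched for Hspa1b. Among the genes searched, Hspa1b was nearest to Cebpa (0.80), a myeloid transcription factor gene, Lilrb4a (0.80), a receptor gene of myeloid cells, and Dusp3 (0.78), all below its 0.88 with Hspa1a. The 9 myeloid markers summed to 660.4 to 2576 CPM in the lymphomas and 498.3 to 2595 in normal thymus, and their part in the Hspa1b level was not tested.

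Biopsies of 1 tumour resembled each other in most of these genes. Over the 13 tumours with several biopsies, the standard deviation of log2 CPM among biopsies of a tumour was 0.15 for Hspa8, 0.18 for Hsf1, 0.19 for Hsp90ab1 and for Dnajb1, 0.23 for Hsp90aa1, 0.25 for Hspd1, 0.27 for Hsph1 and 0.29 for Hspe1, where the median of 16387 genes was 0.37. Between tumours the standard deviation was 0.29 to 0.58 for the same 8 genes, and the median gene had 0.59. The ratio of the spread between to that within tumours was 3.01 for Dnajb1, 2.34 for Hspa8, 2.30 for Hsp90aa1 and 2.11 for Hsph1, against 1.62 for the median gene, and 1.5 for Hspe1 and 1.56 for Hsp90ab1. These are descriptions with no test. The median count per biopsy of the 8 genes ran from 784 (Hsf1) to 59081 (Hsp90ab1). Counting alone gives a standard deviation of about 0.052 and 0.006 there. The 16387 genes were not matched to them for level.

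Hspa1a and Hspa1b differed. Their spread among biopsies of a tumour was 1.13 and 1.11, larger than in 94.9% and 94.5% of genes, and about as large as between tumours (1.14 and 1.08). The median count per biopsy was 11.3 and 34.4, at which counting alone gives a standard deviation of about 0.43 and 0.25 on the log2 scale, so part of that spread is counting error. The highest biopsy of a tumour was typically 4.16 times the lowest for Hspa1b, against 1.25 times for Hspa8 and 1.28 times for Hsp90aa1. In treated p53-/- tumour 857 the 4 biopsies had 2.00, 3.63, 1.29 and 0 CPM of Hspa1b, from 5.97, 3.38, 5.92 and 0 counts, and 3 counts would be 1.84 CPM in the last, so these values rest on a few reads. In untreated p53-/- tumour 881 the 4 biopsies had 11.1, 3.29, 12.5 and 19.6 CPM.

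**Figure D4:**
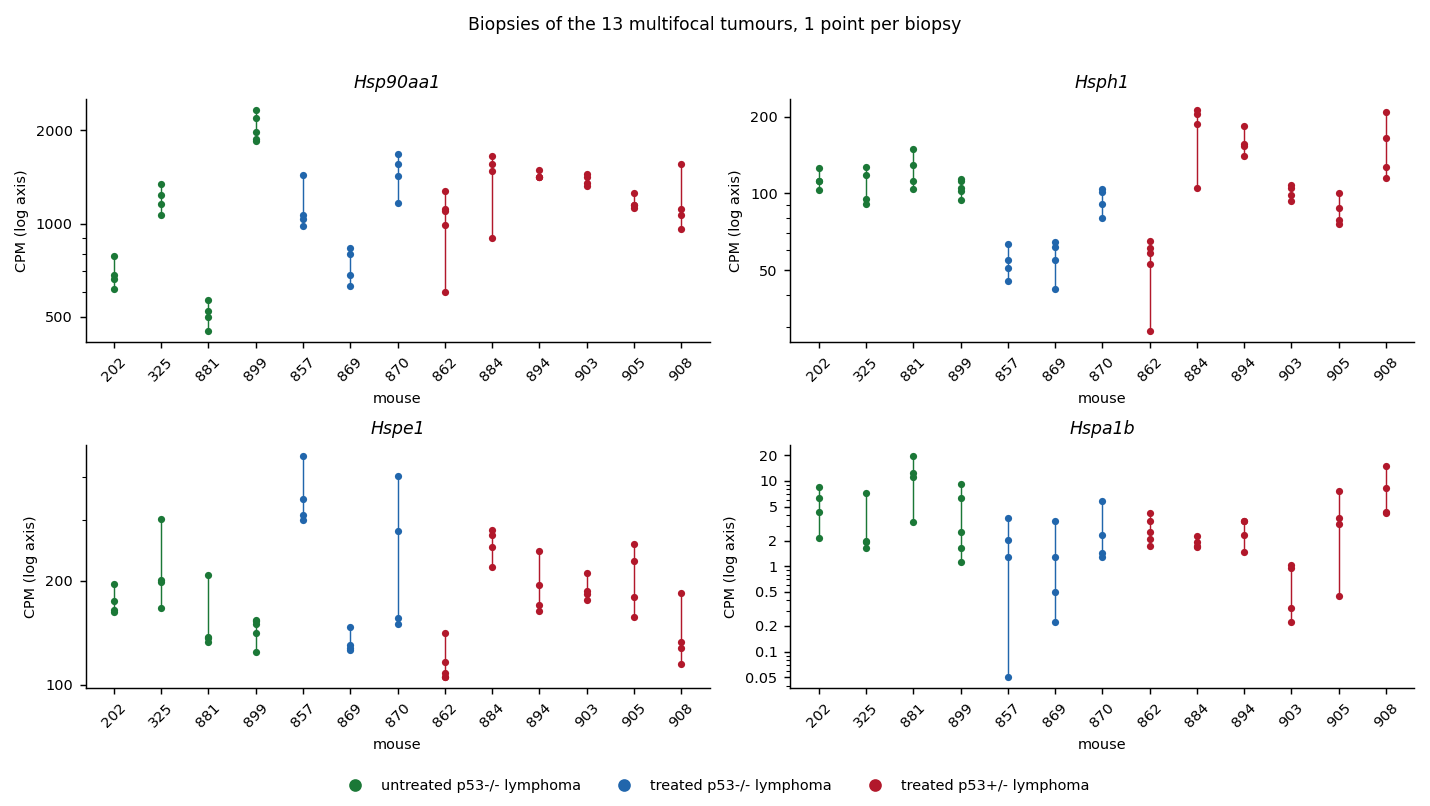
Level of Hsp90aa1, Hsph1, Hspe1 and Hspa1b in CPM on a log axis in each biopsy of the 13 multifocal tumours, 1 column per mouse with a line from its lowest to its highest biopsy. A level of 0 is drawn at 0.05. Most tumours form tight columns for Hsp90aa1, apart from 1 low biopsy each in 862 and 884, while Hspa1b spreads widely.

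A few biopsies stood apart from the rest of their tumour. In treated p53+/- tumour 884, biopsy 2 had 897.8 CPM of Hsp90aa1 against 1473, 1553 and 1652 in the other 3, and 104.9 CPM of Hsph1 against 186.5, 205.3 and 212.5. For Hsp90ab1 the order was turned, with 3752 CPM in biopsy 2 and 2402 to 2862 in the others, so the inducible and the constitutive HSP90 genes moved in opposite directions within this tumour. In tumour 862, biopsy 9 had 602.8 CPM of Hsp90aa1 against 985.8 to 1269 in the other 4 and 28.8 CPM of Hsph1 against 52.8 to 65.2. In tumour 908, biopsy 9 was the high one, with 1090 CPM of Hspd1 against 490.1 to 626.5 and 1562 CPM of Hsp90aa1 against 962.5 to 1117. In treated p53-/- tumour 870, biopsies 1 and 3 had 278.3 and 400.6 CPM of Hspe1 and biopsies 5 and 7 had 149.9 and 155.6.

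Other chaperone families were read from gene lists (the plot of lists by share called). Their counts stand beside 23.2%, 25.4% and 25.6% of all genes called higher and 17.6%, 26.7% and 25.3% called lower in the 3 groups, and no difference between a list and all genes was tested. The cytosolic chaperonin that folds actin and tubulin, the CCT ring with its prefoldin partner, had 13 of 14 genes called higher in each lymphoma group, with median log2 changes of 0.88, 1.20 and 0.99. Cct8 rose from a normal median of 199.6 CPM to 568.6, 635.5 and 713.8, and Cct6a from 151.4 to 431.0, 539.3 and 518.6, by 1.63, 1.86 and 1.81 on the log2 scale. Pfdn5 alone was not called, a gene named after its values were seen (0.08, 0.30 and 0.28). HSP90 cochaperones had 12, 14 and 11 of 22 genes higher and 1, 2 and 2 lower. Rpap3, which links HSP90 to the assembly of RNA polymerases, rose by 1.78, 1.89 and 1.93, and Aarsd1 by 1.07, 1.47 and 1.22. Nudc, a dynein-linked cochaperone gene, rose by 0.95, 1.30 and 1.42. Cdc37l1 fell by 0.45, 0.72 and 0.72, and the first call (adjusted p = 0.0416 in edgeR) was lost under 5 of 12 alternatives. Unc45a, a myosin chaperone gene, fell by 0.45 and 0.44 in the treated groups and was not called in the untreated group (-0.28, adjusted p = 0.11 in edgeR).

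**Figure D5:**
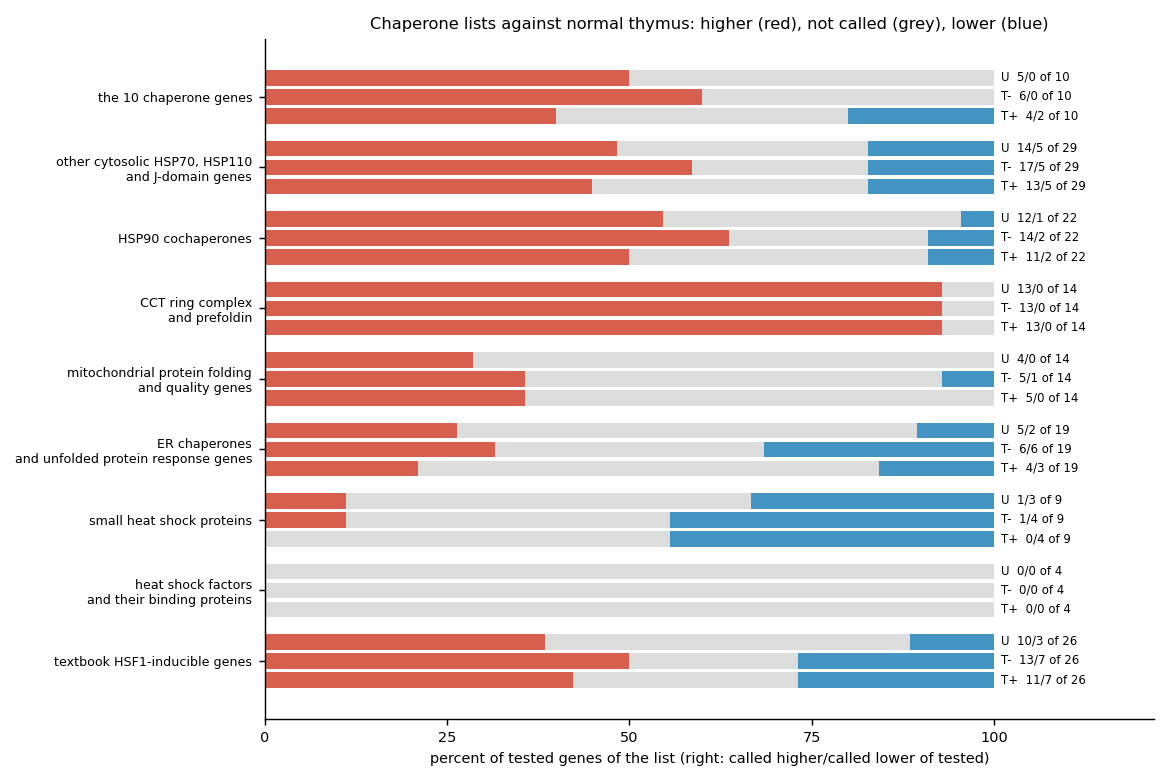
Percent of the tested genes of each chaperone list called higher (red), not called (grey) or called lower (blue) against normal thymus in untreated p53-/- (U), treated p53-/- (T-) and treated p53+/- (T+) lymphomas, with the counts at the right. The CCT ring and prefoldin list has 13 of 14 genes higher in each group, and the small heat shock proteins have more genes lower than higher.

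Among 29 other cytosolic HSP70, HSP110 and J-domain genes, 14, 17 and 13 were higher and 5 lower in each group, and the 5 lower genes are a share at or below that of all genes. Bag2, an HSP70 exchange factor and inhibitor of the CHIP ubiquitin ligase, rose from a normal median of 5.13 CPM to 20.6, 27.1 and 22.8. Dnajc2, a ribosome-bound J-domain gene, rose by 1.48, 1.81 and 1.62, and Dnajc9, a histone chaperone gene, by 1.03, 1.49 and 1.65. Hspa4l, an HSP110 relative, fell by 1.03, 1.30 and 1.28. Dnajb2 fell by 1.26, 1.36 and 1.45 and Dnajb5 by 0.95, 1.68 and 1.38. Dnaja4 fell by 2.57 in treated p53+/- lymphomas and was not called in the others (-0.81 and -0.41, adjusted p = 0.409 and 0.637 in edgeR). Bag3, which drives selective autophagy under stress, fell by 1.43 in treated p53-/- lymphomas (adjusted p = 0.0279 in edgeR), a call that ended without mouse 387 (-1.02, adjusted p = 0.131), and was not called in the other groups (-0.55 and -0.17, adjusted p = 0.459 and 0.804).

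Mitochondrial folding and quality genes other than the chaperonin had 4, 5 and 5 of 14 higher, a share near that of all genes, and 0, 1 and 0 lower, with median log2 changes of 0.13, 0.29 and 0.20. Hscb, an iron-sulfur cluster cochaperone gene, rose by 1.03, 1.15 and 0.84, the protease genes Lonp1 by 0.78, 0.74 and 0.74 and Yme1l1 by 0.45, 0.95 and 0.56, and Grpel1, the exchange factor of mitochondrial HSP70, by 0.77, 0.94 and 0.80. Htra2 fell by 0.52 in treated p53-/- lymphomas and was not called in the others (-0.14 and -0.27, adjusted p = 0.58 and 0.189 in edgeR). Endoplasmic reticulum chaperone and unfolded protein response genes had 5, 6 and 4 of 19 higher and 2, 6 and 3 lower, shares near those of all genes. Sdf2l1 rose by 0.90, 1.59 and 1.04, Atf4, a stress-response transcription factor, by 0.74, 0.82 and 0.82, and P4hb, a disulfide isomerase, by 0.67, 0.85 and 0.74. Dnajb9 fell by 1.71, 1.93 and 1.65 and Xbp1, a transcription factor of the unfolded protein response, by 1.13, 1.06 and 1.32.

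Small heat shock proteins, which hold aggregating proteins without using ATP, had 3, 4 and 4 of 9 tested genes lower and 1, 1 and 0 higher, where 17.6%, 26.7% and 25.3% of all genes were lower. Hspb8 had a median of 45 CPM in normal thymus and 3.23, 2.35 and 2.34 in the lymphomas. The log2 changes were -3.25, -4.64 and -4.65. Hspb1 fell from a normal median of 30.5 CPM to 5.06, 4.91 and 3.72. Hspb7 had medians of 1.28 CPM in normal thymus and 0.377, 0.0973 and 0.299 in the lymphomas, so its values rest on few reads. It was called lower in both treated groups (log2 changes of -3.55 and -2.50, adjusted p = 0.0162 and 0.0462 in edgeR), and its difference in untreated p53-/- lymphomas was 2.31 (adjusted p = 0.16 in edgeR). Tumour 562 had 129.3 CPM of Hspb7 and the next lymphoma 2.28, and the mean over all mice was 4.21 CPM with tumour 562 and 0.916 without it, so the gene met the minimum level for being named (2.09 in edgeR's average log2 CPM) only through that tumour. Skeletal muscle markers had 4 of 6 tested genes higher in untreated p53-/- lymphomas, with 3147 CPM in tumour 562, and 1 and 2 lower in the treated groups. All 8 fat markers were called lower in each group, and 6, 8 and 7 of 10 thymic epithelium markers were lower. The part of these cell types in the small heat shock protein levels was not tested. Of the 4 tested genes for other heat shock factors and their binding proteins 0 were called in any group in edgeR. Textbook HSF1-inducible genes, a list of 26 that holds 9 of the 10 genes of this set, had 10, 13 and 11 higher and 3, 7 and 7 lower, the latter near the share of all genes, with median log2 changes of 0.44, 0.47 and 0.48. HSP90 and HSP60 rose, and Hspb1 and Hspb8 fell, within this 1 list.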

How the data were processed

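RNA sequencing of thymic tissue gave 81 libraries from 40 mice. The authors deposited 1 table of RSEM expected counts for 51826 genes. CASAVA 1.8, fastp, STAR 2.7.2b, RSEM 1.1.17 and build mm10 are named in the submitters' processing notes. The strandedness of the counting is not given in the sources used here. Of the deposited values 14.25% were not whole, because RSEM divides reads between similar genes.

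Expected counts were summed over the biopsies of a tumour and then rounded for the edgeR and DESeq2 fits, so the mouse was the replicate. Levels and correlations used values that were not rounded. edgeR 4.0.16 in R 4.3.3 was used with TMM factors, its filter on low counts, robust quasi-likelihood fits and labelled sex as a covariate, in 1 fit with normal thymus and 1 of lymphomas alone. Levels are CPM with TMM factors. Log2 CPM used a prior count of 2. DESeq2 1.42.0 and limma 3.58.1 were alternatives. The code was tested on simulated data. Coordinates came from GENCODE M21 (GRCm38), matched for 51633 gene IDs. The labels give no batch and no separate cultures; each mouse is 1 animal. P-values measure the spread between mice. Precision for scarce genes is limited by counts, and reads without molecular identifiers are not independent molecules.

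The 10 genes and the gene lists were chosen with earlier results of these data known. All 10 are reported. From each other chaperone list and comparison with normal thymus, the 2 called genes with the largest rise and the 2 with the largest fall were named, provided that edgeR's average log2 CPM over all mice of the fit was 2 or more. That average is taken near the mean count and is raised by a single high mouse. By the mean of the mice's log2 CPM values, the measure used for similar genes, 2 of the 31 named genes would fall under 2, Dnaja4 (1.99) and Hspb7 (-0.90), while Hspa1a had 0.67 over the lymphomas by that measure and 2.26 by edgeR's.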

Additional observations from a re-analysis of the deposited data

Results flagged for a closer look

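In 30 checks of a gene in a group of 8 to 10 mice, 3 had a mouse far from the others, where chance flags about 1 in 20. Untreated p53-/- lymphoma 562 had a log2 CPM of 6.05 for Hspa1a, where the other 9 lay between -1.04 and 2.34. The same tumour had 6.51 for Hspa1b, where the others lay between 0.29 and 3.59. Normal thymus 387 had 5.03 for Hsf1, where the other 7 lay between 5.26 and 5.47. The p53+/- normal thymus, which entered no main comparison, had 46.2 CPM of Hsf1, above the highest of the 8 p53+/+ thymuses at 44.4.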

How the results depend on the processing

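Over 88 fold changes of the 10 genes and of the genes named from the lists, alternatives other than leaving out each mouse in turn, among them a planned setting without normal mouse 387, gave 1057 values, of which 1015 kept direction and side of the threshold, 23 lost the call, 17 gained it and 2 reversed. Hspa1a in untreated p53-/- lymphoma reversed to 0.58 with single-biopsy tumours alone and to 0.079 without normal mouse 387 or without normal mouse 978, and over all mice left out in turn it ran from -2.28 to 0.079. The count of genes called in untreated p53-/- lymphoma was 5, 3 without scaling factors, 8 in the voom fit on all biopsies and 3 when a log2 change of at least 1 was also asked. The cause was not tested, apart from the last, which asks for more. Leaving out each of 39 mice in turn, chosen after seeing the data, gave 4 to 7 called genes in both p53-/- groups and 6 to 7 in treated p53+/- lymphoma. No mouse left out changed the calls of Hsp90aa1, Hsp90ab1 or Hspd1.

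Without scaling factors the median of all genes moved from 0.08 to -0.05 in untreated p53-/- and from 0.00 to -0.12 in treated p53+/- lymphoma, and in the former 3107 genes were called higher and 3549 lower, against 4137 and 3133. The voom fit gave 3436 and 4365. Without mouse 387 the counts there were 4672 and 2597. Without the 3 mice whose sex-linked genes went against the label, Hspa8 was called in both p53-/- groups (0.83 and 0.80, adjusted p = 0.0417 and 0.0495 in edgeR) and Hsph1 in untreated p53-/- lymphoma (1.26, adjusted p = 0.0417). The voom fit called Hspa8 in untreated p53-/- and treated p53+/- lymphoma (0.55 and 0.56, adjusted p = 0.0474 and 0.0262 in limma). Among lymphomas 0 of the 10 genes were called under each alternative run. The count of correlated pairs was 23 to 26. No paired analysis was possible because the groups share no replicate numbers. The low counts of Hspa1a and Hspa1b limit what can be said of single biopsies.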

Other observations

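The p53+/- normal thymus had 379.1 CPM of Hsp90aa1, 1342 of Hsp90ab1, 162.7 of Hspd1, 1342 of Hspa8, 56.6 of Hsph1, 90.2 of Dnajb1, 11.8 of Hspa1a and 21 of Hspa1b, all within the range of the p53+/+ thymuses. Its Hspe1 level of 58.8 CPM was below all 8 of them.

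Tumours sampled once and tumours sampled several times differed in their ranges. Hsph1 reached 644.3 CPM among the 18 single-biopsy tumours and 169.8 among the 13 multifocal ones, with medians of 90.6 and 109.8. Hspa1b had medians of 7.30 and 2.89 CPM and maxima of 90.8 and 12 in these sets, and Hspe1 medians of 148.9 and 200.2. This difference was not tested.

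Gm15459 stood above 25% of the Hspa8 level in 2 normal thymuses, 1 untreated p53-/- lymphoma and 2 treated p53-/- lymphomas. Over all mice of a group its median was 14.6% in normal thymus and 9.03%, 9.18% and 8.98% in the lymphoma groups. Without the mice above 25% it was 13.7% in normal thymus and 8.9%, 9.02% and 8.98% in the lymphoma groups.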
